A study of Mus musculus with 48 samples.

Results

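Ttr, Kl, Folr1, Otx2 and Clic6 are 5 genes usually read as markers of the choroid plexus epithelium, and they were followed in RNA-seq of the mouse substantia nigra (SN). They were chosen by symbol, with earlier results of these data known, and are 5 of the 55385 genes in the count table. The 5 are also among the 19601 protein-coding genes of the batch-corrected table. Samples came from 48 male C57BL/6J mice, 12 in each of 4 groups, injected on 1 side of the brain into the striatum with either monomeric α-synuclein (monomer) or α-synuclein pre-formed fibrils (PFF, sonicated aggregates that seed further aggregation) and kept at 21% O2 or moved to 11% O2. No mouse carried a transgene, and every mouse was operated on, so no uninjected brain is among the groups. Mice were injected at 121 days of age and harvested 90 to 98 days later. The deposited design text and the study's methods give different lengths of time at 11% O2, so no duration is used here.

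The choroid plexus is a sheet of epithelium inside the brain ventricles that secretes cerebrospinal fluid and carries hormones, vitamins and ions between blood and that fluid. Transthyretin (Ttr) carries thyroxine and, with its partner, retinol, and is among the most abundant transcripts of that epithelium. Klotho (Kl) is a co-receptor for a fibroblast growth factor, folate receptor alpha (Folr1) takes up folate, Otx2 is a homeodomain transcription factor, and Clic6 belongs to the chloride intracellular channel family. Outside the epithelium, Kl is known in kidney and some neurons and Otx2 in part of the midbrain dopaminergic neurons. The SN is a midbrain nucleus that holds dopaminergic neurons and does not contain choroid plexus.

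In GRCm38, the build to which the reads were aligned, Kl (ENSMUSG00000058488.7) lies on the plus strand at chr5:150952607-150993817. Folr1 (ENSMUSG00000001827.12) lies on the minus strand at chr7:101858331-101870788, and Otx2 (ENSMUSG00000021848.16) on the minus strand at chr14:48657677-48673819. Clic6 (ENSMUSG00000022949.9) lies on the plus strand at chr16:92485736-92541243 and Ttr (ENSMUSG00000061808.4) on the plus strand at chr18:20665280-20674321. All 5 are protein coding. Counts took no account of strand. Folr1 overlaps Anapc15 on the opposite strand, with a median of 10.1 TPM, and Otx2 overlaps the antisense gene Otx2os1, with a median of 0.514 TPM. Clic6 overlaps 2410124H12Rik on the same strand, with a median of 1.16 TPM. These overlaps are of whole gene spans, introns included, and their effect on the counts was not tested.

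Libraries held 3134594 to 17120921 counts, with a median of 15449561, and 1 mouse (PFF, 11% O2, replicate 2) was far below the others, the next having 12902996. No pair of mice had identical counts. The study left this mouse and 5 others out of the batch-corrected table after a principal component analysis: PFF at 11% O2 replicate 5, monomer at 11% O2 replicates 8, 9 and 12, and monomer at 21% O2 replicate 10. The remaining 42 mice are 11 monomer and 12 PFF mice at 21% O2, and 9 monomer and 10 PFF mice at 11% O2. Mice were killed in 3 harvest batches. Each PFF group had 4 mice in every batch, but batch 2 held no monomer mouse at 11% O2 and batch 3 none at 21% O2. In batch 3, 1 mouse (monomer, 11% O2, replicate 11) was harvested 7 days after the rest of its batch.

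The label of these genes was checked against 39 other genes of choroid plexus epithelium, of which 38 were found. Several genes that define the epithelium had medians below 1 TPM. Median levels over 48 mice in TPM, a scale corrected for gene length and library size, were 0.113 for Tmem72, 0.188 for the coagulation factor F5, 0.227 for Calml4, 0.213 for Wfdc2 and 0.604 for the potassium channel Kcnj13, which reached 24.7 in 1 mouse. Epithelial keratin Krt8 had 0 counts in 18 mice and Wfdc2 in 17. Of the 38 genes, 14 had a median below 1 TPM, 13 lay from 1 to 10 TPM and 11 were at 10 TPM or above. Above the median of Kl were also Kcne2 (1.01 TPM), Sostdc1 (1.48), the tight junction gene Cldn2 (2.10), Trpv4 (2.85), the sulfate transporter gene Slc13a4 (4.80), Ecrg4 (5.41) and the iodide transporter gene Slc5a5 (27.2). The highest genes include Clu (879 TPM) and Enpp2 (387 TPM), which astrocytes and oligodendrocytes also express, and Foxj1 (33.2 TPM), a gene of ciliated cells. For comparison, the dopaminergic neuron genes Th and Slc6a3 had medians of 534 and 962 TPM. The markers of choroid plexus epithelium were thus mixed at the median. Single mice had several of them high, but not always together with the 5 genes. The mouse with 24.7 TPM of Kcnj13 (PFF, 11% O2, replicate 5) ranked 33 of 48 in Ttr, 21 in Folr1, 47 in Otx2 and 24 in Clic6. It ranked 1 in Kl and in the summed TPM of 10 genes of leptomeningeal fibroblasts. The 5 genes are called by their names in what follows. In bulk tissue, fewer cells of a type and less RNA per cell cannot be told apart.

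Before correction, Otx2 was at 5.49 TPM in the lowest mouse, 8.96 at the median and 11.3 in the highest, and Ttr at 3.44, 22.2 and 279. Clic6 was at 0.954, 3.81 and 9.81, Folr1 at 0.241, 2.03 and 3.69, and Kl at 0.424, 0.985 and 11.4. Per length, the order of medians was thus Ttr, Otx2, Clic6, Folr1 and Kl, but the ranges of neighbours overlapped. Median counts behind these levels were 114.5 for Ttr, 153 for Otx2, 55 for Clic6, 39 for Kl and 18 for Folr1. At a count of 18, counting error alone gives a coefficient of variation of 23.6%, against 8.08% for Otx2, so Folr1 was the least precise of the 5.

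Ttr, the secreted carrier, had medians of 20.9 to 22.5 TPM in the 4 groups. In monomer mice at 21% O2 it was 5.39 in the lowest, 22.0 at the median and 62.1 in the highest mouse, and in PFF mice at 21% O2 it was 4.33, 22.5 and 279. In monomer mice at 11% O2 it was 3.44, 22.0 and 41.6, and in PFF mice at 11% O2 it was 6.24, 20.9 and 109. The groups overlapped over most of their range, and the 4 highest of the 48 mice had all received PFF.

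Kl, the growth factor co-receptor, was at 0.683, 1.05 and 3.30 TPM (lowest, median, highest) in monomer mice at 21% O2 and at 0.434, 0.944 and 2.02 in PFF mice at 21% O2. At 11% O2 its levels were 0.424, 0.997 and 4.93 in the monomer group, and 0.530, 1.05 and 11.4 with PFF. Medians lay close together, and the 2 highest mice were at 11% O2. Folr1, the folate receptor, was at 0.241, 1.62 and 2.77 TPM in monomer mice at 21% O2, and at 1.34, 2.17 and 3.69 in PFF mice at 21% O2. At 11% O2 its levels were 1.29, 2.39 and 3.19 in the monomer group, and 0.976, 1.91 and 3.00 with PFF. The single low value of 0.241 TPM rested on 2 counts, with an exact 95% Poisson interval of 0.0292 to 0.871 TPM that covers counting error only.

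Otx2, the transcription factor, varied least. Its levels at 21% O2 were 6.06, 9.36 and 11.0 TPM in the monomer group, and 6.83, 9.29 and 11.3 with PFF. At 11% O2 they were 5.99, 8.15 and 10.5 in the monomer group, and 5.49, 7.99 and 9.95 with PFF, so both medians at 11% O2 lay below both at 21% O2 while the groups overlapped. Clic6, the channel family gene, had levels of 1.56, 3.00 and 7.37 TPM in the monomer group at 21% O2, and 1.44, 4.29 and 8.77 with PFF. At 11% O2 its levels were 0.954, 3.54 and 8.15 in the monomer group, and 1.71, 4.69 and 9.81 with PFF. The Clic6 groups overlapped over most of their range.

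**Figure D1:**
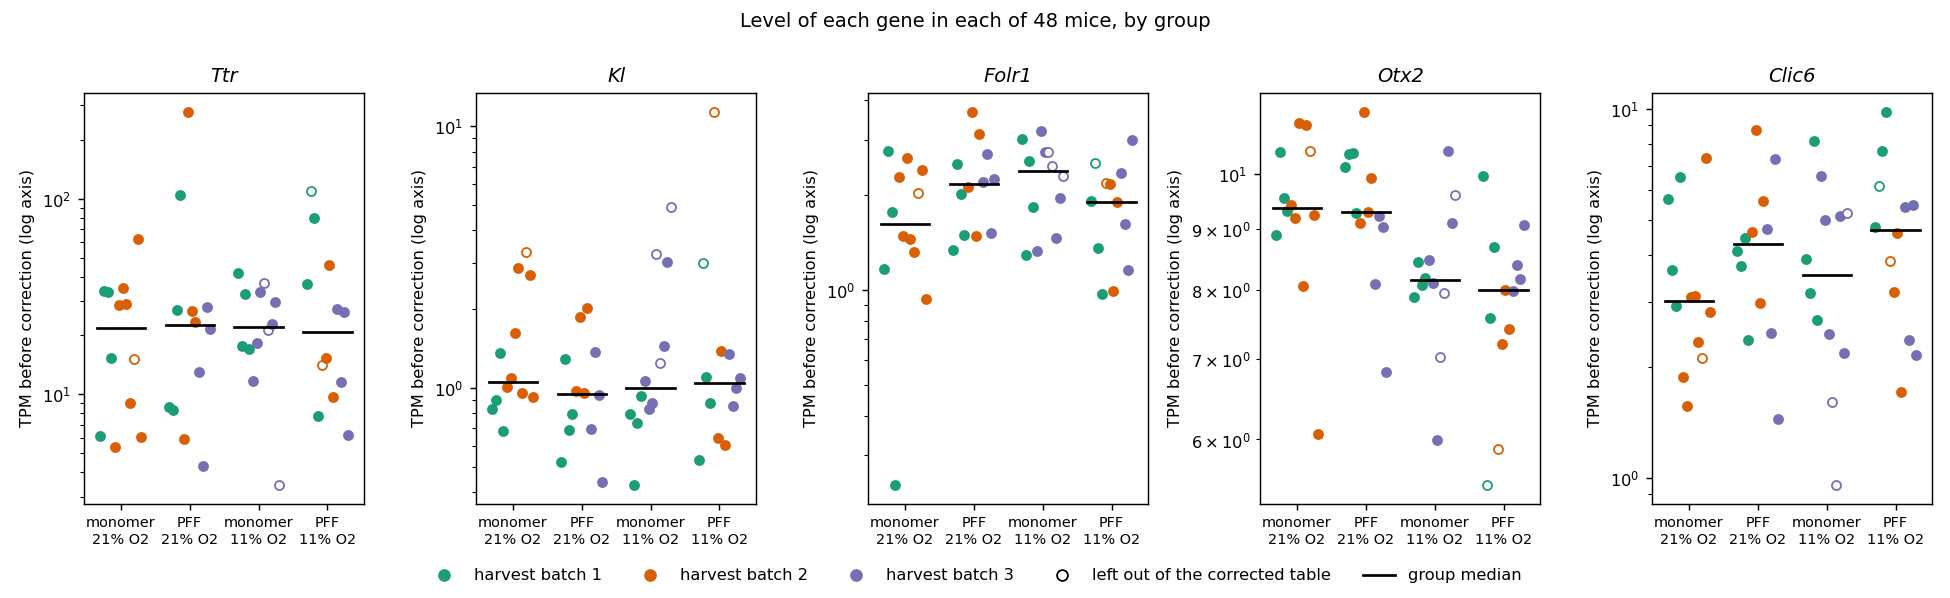
TPM of the 5 genes in each of 48 mice before correction (log axis), by injection and O2 group, with the group medians as bars. The groups overlap for all 5 genes, and Ttr spans 3.44 to 279 TPM whereas Otx2 stays between 5.49 and 11.3.

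The effect of PFF in mice at 21% O2 was tested on the batch-corrected counts of 42 mice with edgeR's quasi-likelihood test, and calls needed an adjusted p (Benjamini-Hochberg) below 0.05 as well as an absolute log2 fold change above 0.25. None of the 5 genes was called (0 of 5), where 3.7% of the 14839 genes tested were. Ttr had a log2 fold change (PFF over monomer) of 1.08 (SE 0.70, 95% interval -0.33 to 2.50, adjusted p = 0.369). This value rested on a single mouse: without PFF at 21% O2 replicate 6 it was 0.10 (edgeR adjusted p = 0.955). Clic6 had 0.52 (SE 0.33, adjusted p = 0.364) and Folr1 0.42 (SE 0.24, adjusted p = 0.294). Kl had -0.33 (SE 0.28, adjusted p = 0.512) and Otx2 0.052 (SE 0.075, adjusted p = 0.735). The interval of Otx2, -0.099 to 0.20, was the narrowest, and that of Ttr was too wide to exclude a change of either sign.

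At 11% O2, PFF against monomer gave 0 of 5 genes called, with a background of 0%: edgeR called no gene of 14839, and DESeq2 called 1 gene. In edgeR 581 genes had an unadjusted p under 0.05, where chance alone gives a share of 0.05 of all genes. Ttr had a log2 fold change of -1.02 (SE 0.76, 95% interval -2.56 to 0.51), Kl -0.35 (SE 0.31), Folr1 -0.31 (SE 0.26), Clic6 -0.048 (SE 0.35) and Otx2 0.036 (SE 0.084), each with an edgeR adjusted p of 1.00. Without monomer at 11% O2 replicate 7 the Ttr value was -0.67. Before correction, the Ttr medians at 11% O2 were 22.0 TPM (monomer) and 20.9 TPM (PFF).

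Breathing 11% against 21% O2 in monomer mice gave 0 of 5 genes called, with a background of 7.23%. Otx2 had a log2 fold change of -0.18 (SE 0.082, 95% interval -0.34 to -0.015, edgeR unadjusted p = 0.0336, adjusted p = 0.141). Its adjusted p reached 0.0469 when monomer at 21% O2 replicate 12 was left out, but the fold change of -0.22 stayed short of the 0.25 that a call needed. Ttr had 1.08 (SE 0.74, edgeR adjusted p = 0.362), Clic6 0.51 (SE 0.35, adjusted p = 0.358), Folr1 0.39 (SE 0.25, adjusted p = 0.328) and Kl -0.11 (SE 0.29, adjusted p = 0.851). Before correction, the Ttr median was 22.0 TPM in both groups. The correction set the Ttr count to 1 in 3 monomer mice at 21% O2, and raised replicate 7 at 11% O2 from 33.4 to 129 TPM. Over 11 alternative fits the Ttr value ran from 0.28 to 2.02. In these groups batch 2 and batch 3 each held mice at a single O2 level, so only batch 1 gives a comparison within a batch. There, on counts before correction, Otx2 had -0.23 (adjusted p = 0.353).

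In PFF mice, 11% against 21% O2 again gave 0 of 5 genes called, with a background of 0.58%. Otx2 had a log2 fold change of -0.19 (SE 0.078, 95% interval -0.35 to -0.038, edgeR unadjusted p = 0.0160, adjusted p = 0.334). Within harvest batches, on counts before correction of all 48 mice, Otx2 had -0.26 in batch 1 (adjusted p = 0.509), -0.46 in batch 2 (adjusted p = 0.350) and 0.016 in batch 3 (edgeR adjusted p = 0.999). These fits included PFF at 11% O2 replicate 2 in batch 1 (5.49 TPM) and replicate 5 in batch 2 (5.89 TPM). Both are absent from the corrected counts and ranked 48 and 47 of 48 in Otx2. Among the 48 mice the PFF groups were balanced over the 3 batches, and the sign for Otx2 was negative in 2 of them. Ttr had -1.03 (SE 0.72, adjusted p = 0.650), Folr1 -0.34 (SE 0.24, adjusted p = 0.660), Kl -0.14 (SE 0.29, adjusted p = 0.904) and Clic6 -0.050 (SE 0.33, adjusted p = 0.973). Without PFF at 21% O2 replicate 6 the Ttr value was -0.045 (edgeR adjusted p = 0.991).

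Whether the PFF effect differed with O2 was tested as an interaction, and 0 of 5 genes were called, with a background of 2.14%. Ttr had an interaction of -2.11 on the log2 scale (SE 1.04, 95% interval -4.19 to -0.020, edgeR unadjusted p = 0.0480, adjusted p = 0.319), and -1.13 without PFF at 21% O2 replicate 6. On the counts of 48 mice before correction, with harvest batch in the fit, the Ttr interaction was -1.26, and without that mouse 0.14. Folr1 had -0.73 (SE 0.35, 95% interval -1.43 to -0.018, unadjusted p = 0.0446, edgeR adjusted p = 0.308). Clic6 had -0.56 (SE 0.48), Kl -0.024 (SE 0.41) and Otx2 -0.016 (SE 0.11). The 5 comparisons share mice, so their values are not separate evidence.

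**Figure D2:**
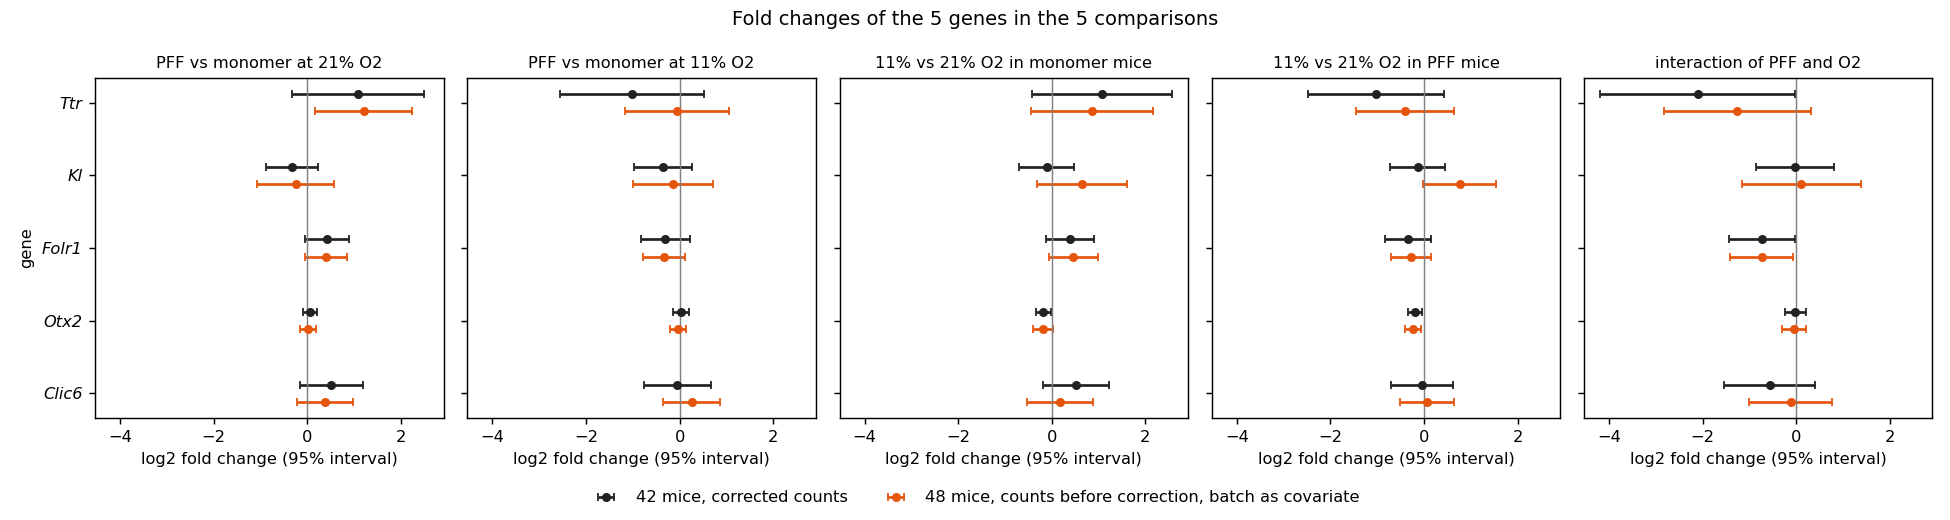
Log2 fold changes of the 5 genes in the 5 comparisons (points, log2 axis) with 95% intervals (bars), from the batch-corrected counts of 42 mice (black) and from the uncorrected counts of 48 mice with batch in the fit (orange). Otx2 has the narrowest and Ttr the widest intervals, and 0 of 5 genes were called in either fit.

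Among the 39 other choroid plexus genes, 31 passed the filter on low counts in these comparisons. With PFF at 21% O2, 2 of 31 were called, against 3.7% of all genes, and both were higher: the osmosensitive cation channel gene Trpv4 (log2 fold change 0.71, SE 0.16, edgeR adjusted p = 0.00396) and Sostdc1, a secreted antagonist of bone morphogenetic protein and Wnt signals (0.70, SE 0.23, adjusted p = 0.0450). The median of the 31 was 0.097, against 0.00085 over all genes. With 11% O2 in monomer mice 1 of 31 was called, against 7.23% of all genes, again Trpv4, which was higher by 1.01 (SE 0.17, edgeR adjusted p = 5.5e-05), and in the interaction 1 of 31 was called, against 2.14% of all genes, Trpv4 at -1.13 (SE 0.23, edgeR adjusted p = 0.00400). The other 2 comparisons had 0 of 31 called. Trpv4 had median levels before correction of 1.87 TPM (monomer) and 3.05 TPM (PFF) at 21% O2, and 4.18 TPM (monomer) and 2.81 TPM (PFF) at 11% O2. Both genes also differed between harvest batches, Trpv4 by 0.50 (SE 0.15, edgeR adjusted p = 0.0107) and Sostdc1 by -0.63 (SE 0.22, adjusted p = 0.0269) in batch 3 against batch 1. On counts before correction with batch in the fit, Trpv4 was still called, but within batch 1 alone it had 0.43 with PFF at 21% O2 (edgeR adjusted p = 0.725), and Sostdc1 was no longer called (0.64 over 42 mice, adjusted p = 0.0931). Of the other genes named by rule, Prox1, a transcription factor, was called with 11% O2 in monomer mice (0.28, SE 0.066, edgeR adjusted p = 0.00376), and Th, Slc6a3, Foxj1, Dcn and Tcf7l2 were called in none of the 5 comparisons. Among markers of other cell types, 0 of 4 ependymal and 0 of 8 dopaminergic neuron genes tested were called in any of these comparisons, and 1 of 10 leptomeningeal genes was (Mgp, higher with 11% O2 in monomer mice). For other regions, 1 of 7 thalamus and habenula genes was called (Tac2, higher with PFF at 21% O2), 1 of 2 pituitary genes (Tshb, higher with 11% O2 in monomer mice) and 1 of 6 hippocampal genes (Prox1, as above). Mgp, Tac2 and Tshb were singled out after their values were seen. In single comparisons, 0% to 7.23% of all genes were called, and the share called in any of the 5 was not computed. The counts for other cell types and regions are therefore not read as a result about those genes.

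Harvest batches were compared on the counts of all 48 mice before correction with group in the fit. Kl was the gene of the 5 that was called over the 3 batches (1 of 5, edgeR adjusted p = 0.0141), where 31.8% of 18158 genes were. Its medians were 0.815, 1.24 and 1.08 TPM in batches 1, 2 and 3, and batch 2 was higher than batch 1 by 1.28 on the log2 scale (SE 0.35, 95% interval 0.57 to 1.99, adjusted p = 0.00825), against a background of 10.5% of genes called. Without PFF at 11% O2 replicate 5 the difference was 0.75 (edgeR adjusted p = 0.0717), and this was the single mouse of the 48 whose removal lost the call. Over the 42 mice of the corrected table, at counts before correction, the difference was 0.71 and Kl was called (edgeR adjusted p = 0.0272). Of 10 leptomeningeal fibroblast genes, 7 were called higher in batch 2 than in batch 1, with a median log2 fold change of 1.16, against -0.0050 over all genes. Their part in the Kl difference was not tested.

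Ttr had medians of 29.7, 19.4 and 21.5 TPM in the 3 batches. It was not called in batch 3 against batch 1 (log2 fold change -1.04, SE 0.49, edgeR unadjusted p = 0.0396, adjusted p = 0.0994), where 0 of 5 genes and 14.2% of all genes were called. In batch 3 against batch 2 Ttr had -1.20 (SE 0.57, unadjusted p = 0.0389, edgeR adjusted p = 1.00), where edgeR called 0 of 5 genes and 0% of all genes, with 785 genes at an unadjusted p under 0.05. Without PFF at 21% O2 replicate 6 that Ttr difference was -0.26. Clic6 had medians of 4.29, 3.09 and 3.59 TPM, Otx2 of 9.08, 9.22 and 8.29, and Folr1 of 1.80, 2.08 and 2.28, and none of these was called between any batches. Of 8 dopaminergic neuron genes, 7 were called lower in batch 3 than in batch 1, where 14.2% of all genes were called, with a median of -0.69. Of the other choroid plexus genes, 29 passed the filter on low counts here. In batch 2 against batch 1, 6 were called higher and 1 lower, where 10.5% of all genes were called. In batch 3 against batch 1, 3 were called higher and 1 lower, where 14.2% of all genes were called. These counts are not read as a result about choroid plexus genes.

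The batch correction moved single Ttr values by larger ratios than those of the other 4 genes. In 9 of 42 mice the corrected Ttr count was exactly 1, although these mice had 24 to 138 counts and 4.33 to 26.5 TPM before. They were 8 mice of batch 2 and 1 of batch 3, and by group 4 PFF and 3 monomer mice at 21% O2 and 2 PFF mice at 11% O2. Over the 14 corrected mice of batch 2 the median Ttr level after correction was 0.231 TPM, and the median ratio of corrected to uncorrected levels was 0.0373. In the other direction, monomer at 11% O2 replicate 7 went from 33.4 to 129 TPM and replicate 11 from 29.7 to 92.6 TPM, both in batch 3.

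The ratio of the corrected to the uncorrected Ttr level ran from 0.00781 to 3.86, and was below 0.5 in 12 mice and above 2 in 5. For Kl it ran from 0.682 to 1.91, for Folr1 from 0.791 to 2.77, for Clic6 from 0.611 to 1.57 and for Otx2 from 0.974 to 1.17, and none of these had a corrected count of 1. Of 14490 genes with a mean of at least 10 counts before correction, 25 genes (0.173%) had any mouse taken from 10 or more counts to at most 1, and Ttr had the most such mice. With the batches pooled, the order of mice changed most for Kl, with a Spearman rho of 0.712 between levels before and after. It was 0.821 for Ttr, 0.942 for Folr1, 0.955 for Clic6 and 0.957 for Otx2. Within batches, however, the order for Kl was nearly kept, with a rho of 0.979, 0.987 and 0.984 in batches 1, 2 and 3. Ttr had the lowest rho of these genes within each batch, at 0.875, 0.855 and 0.940. The tests on corrected counts do not carry the uncertainty of the correction.

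**Figure D3:**
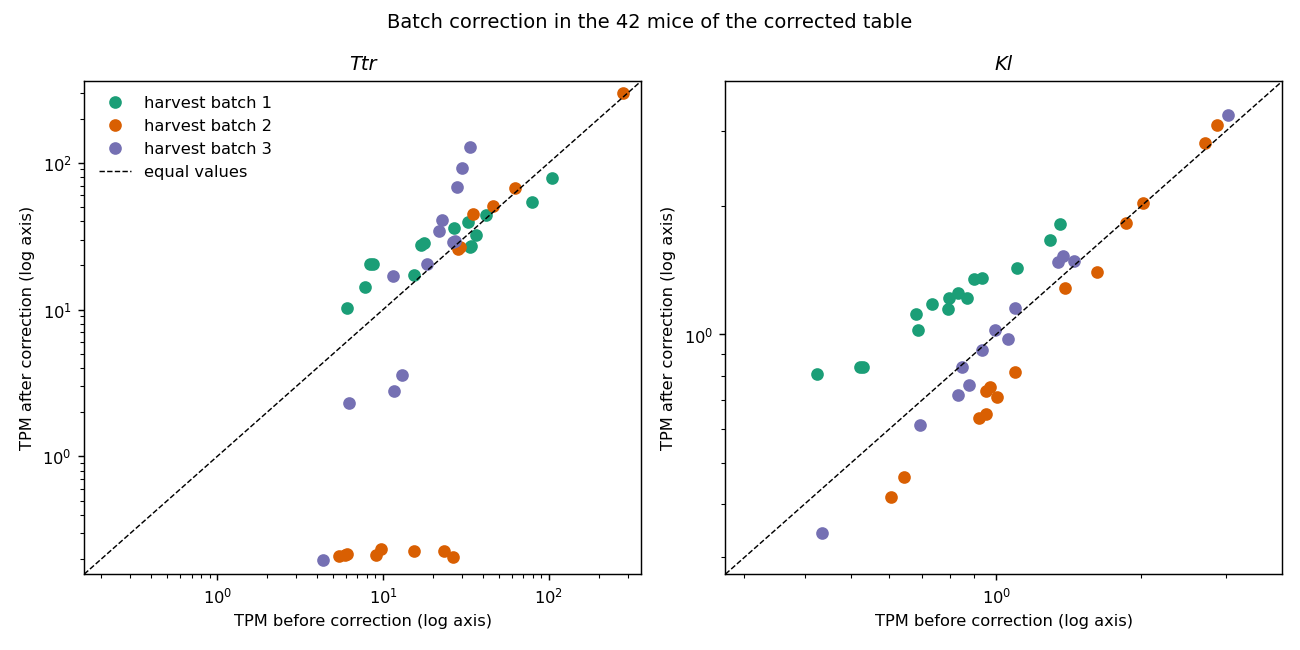
Ttr (left) and Kl (right) TPM before against after batch correction in 42 mice (log axes), coloured by harvest batch, with a dashed line of equal values. The 9 Ttr points at the bottom, 8 of them from batch 2, lie at no more than 0.234 TPM after correction, whereas the Kl batches shift by ratios of 0.682 to 1.91.

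Spread between mice was described by edgeR's biological coefficient of variation (BCV), the variation left after counting error. Before correction, over 48 mice, it was 0.823 for Ttr, above 99.7% of the 18158 genes, 0.606 for Kl (98.8%), 0.469 for Clic6 (97.8%), 0.266 for Folr1 (92.3%) and 0.119 for Otx2 (58.9%). The median gene had 0.104. Among the 1000 genes nearest in abundance these percentiles were 99.6 for Ttr, 97.4 for Kl, 95.4 for Clic6, 83.1 for Folr1 and 59.5 for Otx2. Ttr, Kl, Clic6 and Folr1 thus varied more between mice than most genes, and Otx2 varied like a typical gene. After correction, over 42 mice, the BCV of Ttr was 1.33 and that of Kl 0.440.

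Most of the variance lay between mice of the same group and batch. The shares given here are not adjusted for the numbers of groups and batches. Values that varied at random would also lie mostly between mice, and would give some share to groups and to batches. On the log2 scale before correction this share was 88.7% for Ttr, 80.2% for Folr1, 75.4% for Kl, 74.7% for Clic6 and 64.3% for Otx2. The 4 groups took 0.898% of the variance of Ttr, 4.06% of Kl, 4.72% of Clic6, 11.5% of Folr1 and 23.9% of Otx2. Batches within groups took 20.6% of Clic6 and 20.5% of Kl, and 10.4% of Ttr.

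Single mice stood out in different ways. PFF at 21% O2 replicate 6, in batch 2, was the highest of 48 in Ttr (279 TPM, 1444 counts), Folr1 (3.69 TPM) and Otx2 (11.3 TPM), the second in Clic6 (8.77 TPM) and the tenth in Kl (1.86 TPM). It was the only mouse with all 5 genes among its 10 highest values of 48. Other choroid plexus genes were also high there, with Kcne2 ranked 1 and Aqp1, Calml4 and Sostdc1 each ranked 2 of 48. Trpv4 and Tmem72 each ranked 20, however, Enpp2 38 and F5 43. Its summed leptomeningeal level ranked 17, and its library of 16145930 counts was among the normal ones.

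Other mice with high Ttr shared that pattern in part. PFF at 11% O2 replicate 2, the shallow library, had 109 TPM of Ttr from 134 counts, ranked 6 in Kl, 9 in Clic6 and 12 in Folr1, and had the lowest Otx2 of all. It was also the highest of 48 in the choroid plexus genes Calml4 (6 counts), Car12, Wfdc2 (7 counts), Ecrg4, Lbp and Col8a2. Other genes of that list were the lowest of 48 there, among them Cldn2, Kcne2 (0 counts), Htr2c, Rdh5, Enpp2, Clu and Foxj1. The summed leptomeningeal level of this mouse ranked 2 of 48 (988 TPM). Monomer at 21% O2 replicate 11, ranked 5 in Ttr, ranked 8 in Kl, 15 in Folr1, 18 in Otx2 and 5 in Clic6. PFF at 21% O2 replicate 4 had 105 TPM of Ttr with ranks of 17 to 38 in the other 4 genes. PFF at 11% O2 replicate 5 had the highest Kl (11.4 TPM, 380 counts) and the highest summed leptomeningeal level (1614 TPM, against a median of 93.2), with a Ttr of 14.1 TPM that ranked 33. Over the 6 mice that the study left out, Kl was above every kept mouse of the same group in 5, Ttr in 1 and the other 3 genes in 0.

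Co-variation between mice was tested as 16 relations, the 10 pairs among the 5 genes and Ttr against 6 genes of other cells or regions, on log2(TPM + 0.1) with group and batch means removed. None of the 10 pairs passed after Benjamini-Hochberg adjustment over the 16, by Pearson's r or Spearman's rho. The r of the pairs ran from -0.18 to 0.28, with a median of 0.12, and 7 of 10 were above 0. Kl with Folr1 was the highest (r = 0.28, permutation p = 0.0396, adjusted p = 0.599, rho = 0.36, permutation p = 0.0168, adjusted p = 0.268), and r was 0.29 without the 2 mice farthest from the median of Kl. Ttr with Kl had r = 0.15 (permutation p = 0.320, adjusted p = 0.732, rho = 0.28, permutation p = 0.0782, adjusted p = 0.626), with r = 0.11 without the 2 farthest mice.

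Pairs did not behave alike in the 3 batches. The median r of the 10 pairs was -0.094 in batch 1, 0.32 in batch 2, which held the mouse high in all 5 genes, and -0.14 in batch 3, and no pair passed after adjustment in any batch. Ttr against the ciliated-cell gene Foxj1 had r = -0.058, against Dcn, a gene of fibroblasts, -0.099, against Th -0.046, against Slc6a3 -0.034 and against Prox1 -0.056. The largest of this set was Ttr with the thalamic gene Tcf7l2 (r = -0.32, permutation p = 0.0749, adjusted p = 0.599).

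The genes whose levels were most like each of the 5 were different for each, over 48 mice and 15174 protein-coding genes. These correlations share libraries and depth, have no test, and were looked at after the values were seen. Kl was most like Gjb2 (r = 0.89), Igfbp2 (0.89), Col13a1 (0.89), Pcolce (0.88), Slc6a13 (0.88) and Slc13a4 (0.87). Of these, Slc6a13, a γ-aminobutyric acid transporter gene, is on the leptomeningeal list used here, while the growth factor binding gene Igfbp2 and Slc13a4 are on the choroid plexus list. Over the 42 mice of the corrected table, at levels before correction, the r of the 8 genes most like Kl was 0.70 to 0.75. Clic6 was most like Dkk3 (0.85), Lmx1a (0.84), Insm1 (0.84) and Foxa1 (0.83), of which Lmx1a and Foxa1 are transcription factors of midbrain dopaminergic neurons and Lmx1a is also on the choroid plexus list, and over 42 mice the r of its 8 genes was 0.79 to 0.88.

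Folr1 was most like Aox1 (0.72), Ccdc3 (0.67), Alox5ap (0.64) and, among the next, the astrocyte filament gene Gfap (0.63, Spearman rho 0.45). Otx2 was most like Rpgrip1l (0.67), a gene of the ciliary transition zone. Ttr had no gene above 0.48, the r of Ngp, a neutrophil granule gene with a median of 0 TPM. By their r to Ttr, the other 4 genes ranked 269 (Clic6), 432 (Folr1), 1206 (Kl) and 5988 (Otx2) of 15174.

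Against the summed lists, Kl had r = 0.83 with the 10 leptomeningeal genes (0.62 over 42 mice), 0.59 with the choroid plexus genes for secreted and matrix proteins (0.52 over 42 mice), 0.52 with those for transporters and channels (0.51) and 0.50 with those for junctions and keratins (-0.12). Clic6 had r = 0.80 with the 8 dopaminergic neuron genes (0.80 over 42 mice). Folr1 had r = 0.48 with the ependymal genes and Clic6 -0.44. Otx2 stayed between -0.40 and 0.28 and Ttr between -0.31 and 0.13 over the 11 lists. Neither Ttr nor Otx2 thus followed any of these sums closely from mouse to mouse. Each sum is weighted to its most abundant genes, such as Clu (median 879 TPM) and Enpp2 (387 TPM) among secreted and matrix proteins. Among transporters and channels the most abundant was Atp2b3 (115 TPM). The choroid plexus sums therefore do not show whether a gene followed the amount of that epithelium.

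The genes most like the mean of the 5, each standardised, included Cpne8 (r = 0.52), Hdc, Wnt5a, Itga8, Car12, Rxfp1, Pthlh, Thbs4, Insl6, Mindy4, Gm128, Mfge8, Pter and Gcnt2 (r = 0.44). The r of the 5 genes with their own mean, of which each is a part, ran from 0.38 (Otx2) to 0.58 (Ttr).

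**Figure D4:**
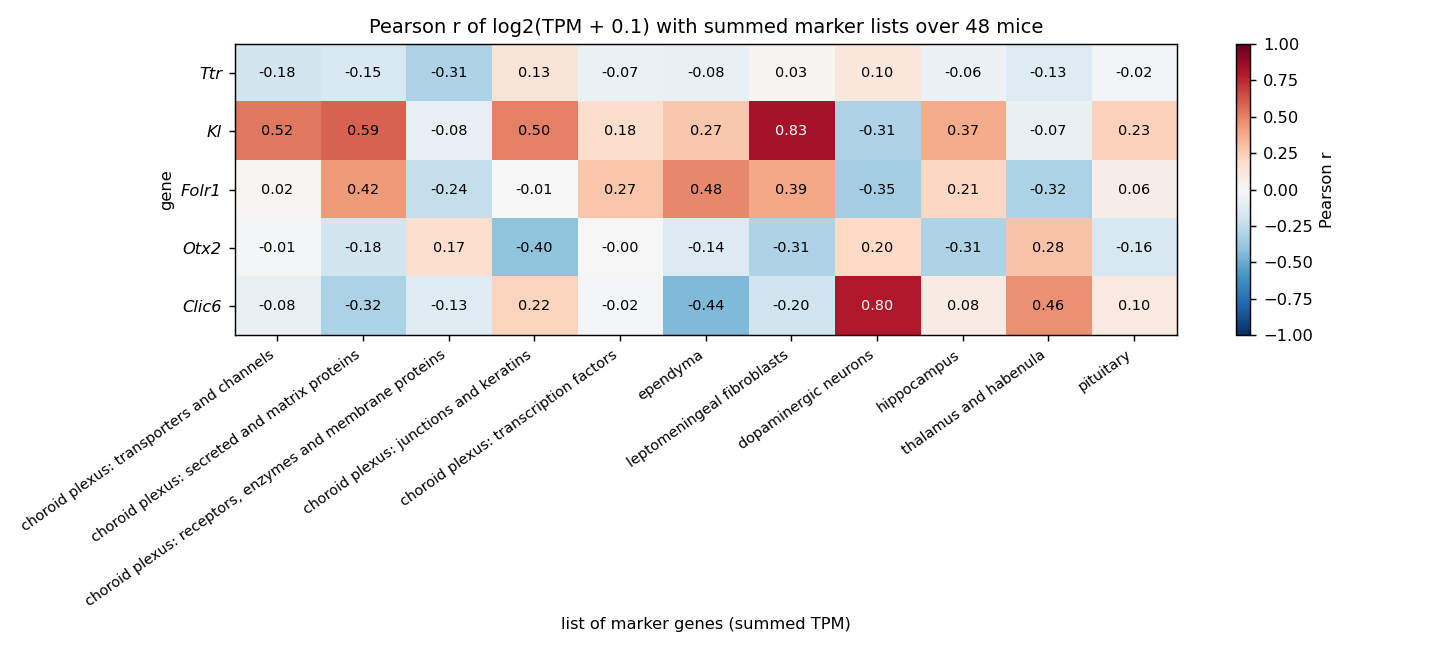
Pearson r (colour and number) of each of the 5 genes with the summed TPM of each marker list, on log2(TPM + 0.1), over 48 mice before correction. Kl stands out with leptomeningeal fibroblast genes (0.83) and Clic6 with dopaminergic neuron genes (0.80), while Ttr lies between -0.31 and 0.13. Each sum is weighted to its most abundant genes.

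**Figure D5:**
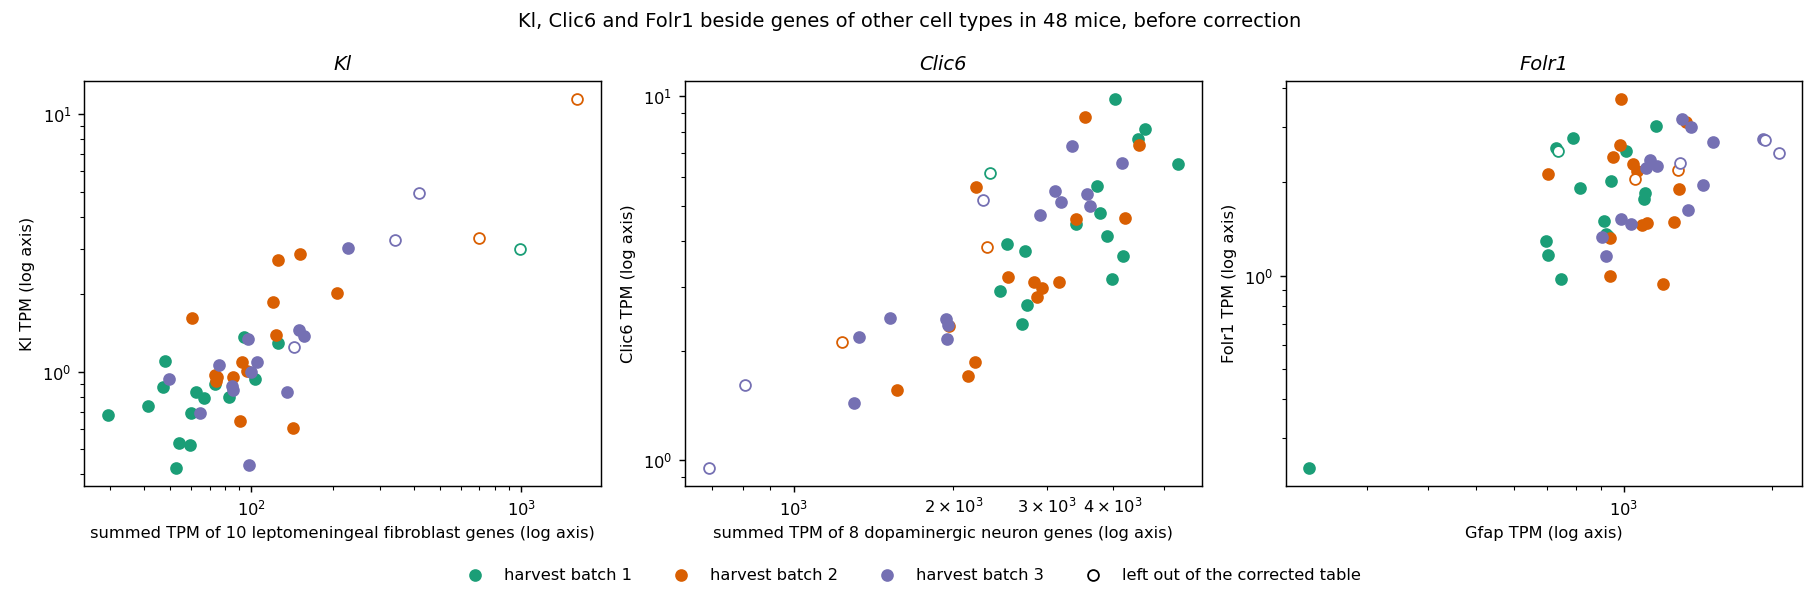
Kl against the summed TPM of 10 leptomeningeal fibroblast genes, Clic6 against that of 8 dopaminergic neuron genes and Folr1 against Gfap, per mouse and on log axes, coloured by harvest batch, with open circles for the 6 mice left out of the corrected table. Kl rises with the leptomeningeal sum up to the mouse at 11.4 TPM of Kl, and Clic6 with the dopaminergic sum.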

How the data were processed

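Total RNA of the dissected SN was made into poly(A) libraries. Per the labels and the study's methods, the authors removed ribosomal DNA reads, aligned to mm10 with STAR (v.2.7.5a), removed duplicates with Picard (v.2.21.9) and counted reads per gene without strand using featureCounts (v.2.0.1), which also counted the primary alignment of reads with several matches. The authors deposited whole counts and TPM of 48 mice. For 42 mice and protein-coding genes they also deposited both units after ComBat-seq, run with O2 and injection as covariates.

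The 5 genes, the gene lists and the tests were chosen with earlier results of these data known. Groups came from the labels. Counts were tested in R (v.4.3.3) with edgeR (v.4.0.16), using TMM scaling, its filter on low counts by group and quasi-likelihood F tests with Benjamini-Hochberg adjustment over all genes tested. Fits used all groups present among the mice fitted, and were checked on simulated data. These data gave every gene the same spread and had no batch correction step, so the check does not cover genes as variable as Ttr. p-values measure the spread between these mice. Alternatives were DESeq2 (v.1.42.0), limma (v.3.58.1) on log2(TPM + 1) and log2(TPM + 0.1), other scaling, robust dispersions, no fold-change threshold, no filter, counts before correction with batch in the fit, each batch alone, a block for replicate number, and leaving out each mouse. Correlations used log2(TPM + 0.1), with 100000 permutations within cells of group and batch. Depth was 3134594 to 17120921 counts, and intervals of single counts are exact Poisson.

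Named genes were the 5; genes of the choroid plexus list called in any of the 5 comparisons; the 15 non-member protein-coding genes of at least 0.5 mean TPM most like the mean of the 5, of which 1 is not reported here; and Foxj1, Dcn, Th, Slc6a3, Tcf7l2 and Prox1. The genes most like each single gene, Gfap and the genes named in the check of the label and in single mice were added after their values were seen.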

Additional observations from a re-analysis of the deposited data

Results flagged for a closer look

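In the batch-corrected table, Kl in monomer mice at 11% O2 replicate 11 was at 3.28 TPM, and the nearest of the other 8 mice of its group there at 1.49 TPM. Before correction it was at 3.03 TPM, below replicates 8 and 12 of the same group (3.25 and 4.93 TPM). The study left both of these out of that table, so the gap holds only among the mice kept. In the corrected table the gap took up a share of 0.701 of the range of the group, above the 95% critical value of 0.493 for 9 samples. Only the groups at 11% O2 were small enough to be tested this way. This gave 10 sets, each 1 gene in 1 group, of which chance alone passes about 1 in 20, and these sets share mice. Replicate 11 was the mouse harvested 7 days after the rest of batch 3, and its Ttr went from 29.7 to 92.6 TPM with the correction. A link of Kl to harvest date was not tested.

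For Trpv4, the effect of PFF differed between 21% and 11% O2 in a test of the difference itself, at -1.13 on the log2 scale (SE 0.23, edgeR adjusted p = 0.00400, 42 mice). It was not called in batch 1 alone, which held all 4 groups (-0.94, adjusted p = 0.609). None of Ttr, Kl, Folr1, Otx2 and Clic6 had such a difference after adjustment.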

How the results depend on the processing

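None of Ttr, Kl, Folr1, Otx2 and Clic6 was called in any of the 5 comparisons of groups under any alternative run, including each mouse left out in turn, so what moved was the sign of values short of the threshold, and the cause was not tested. On log2 scales, the following values had the opposite sign to those of the report. In batch 1 alone, before correction, PFF against monomer gave -0.33 for Clic6 at 21% O2, and 1.16 for Ttr, 0.80 for Kl and 0.75 for Clic6 at 11% O2. There, 11% against 21% O2 gave -0.073 for Clic6 in monomer mice, and 0.67 for Ttr, 0.59 for Kl and 1.01 for Clic6 in PFF mice, and the interaction was 0.39 for Ttr, 0.99 for Kl and 1.08 for Clic6. Kl had 1.25 in batch 2 alone and 0.31 in batch 3 alone for O2 in PFF mice, where batch 3 gave 0.096 for Ttr and 0.016 for Otx2, and Clic6 had 0.097 in batch 3 alone for PFF at 11% O2. On the uncorrected counts with batch in the fit, Clic6 had 0.13 (42 mice) and 0.26 (48 mice) for PFF at 11% O2, and 0.072 (42 mice) and 0.066 (48 mice) for O2 in PFF mice. With 48 mice, Otx2 had -0.036 for PFF at 11% O2, and Kl had 0.65 for O2 in monomer mice, 0.76 for O2 in PFF mice and 0.11 for the interaction.

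Alternatives chosen after seeing the data left single mice out of that fit. Without PFF at 11% O2 replicate 5, Kl had 0.16 for O2 in monomer and 0.063 in PFF mice. Without PFF at 21% O2 replicate 6, Ttr had 0.067 for PFF at 21% O2, 0.21 for PFF at 11% O2, 0.34 for O2 in PFF mice and 0.14 for the interaction. With limma on log2(TPM + 0.1), Ttr had -0.10 for PFF at 21% O2 and 0.32 for O2 in PFF mice, and on log2(TPM + 1) Ttr had 0.080 for the latter and Kl 0.00032 for the interaction.

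Replicate numbers did not pair the mice: the mean correlation of deviations was 0.019 for the same number and -0.0013 for other numbers, and 21 of 54 same-numbered pairs were over 0.1. With the replicate number as a block, the number of genes called with PFF at 21% O2 was 461 against 549, Kl had 0.013 and Otx2 0.042 for the interaction, and Otx2 had -0.057 for batch 3 against batch 2. All of batch 1 had numbers 1 to 4, so the block could not be fitted for contrasts with batch 1.

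Leaving out 1 mouse at a time gave ranges that crossed 0 for Otx2 (-0.0092 to 0.083) and Clic6 (-0.16 to 0.15) with PFF at 11% O2, for Kl with O2 in monomer mice (-0.41 to 0.068), for Clic6 with O2 in PFF mice (-0.16 to 0.13) and for Kl (-0.20 to 0.28) and Otx2 (-0.061 to 0.031) in the interaction. For harvest batches they crossed 0 for Ttr in batch 2 against 1 (-0.63 to 0.37), and for Otx2 (-0.030 to 0.053) and Clic6 (-0.22 to 0.12) in batch 3 against 2. For Ttr with PFF at 21% O2 the range was 0.10 to 1.41, the lowest without replicate 6 of PFF at 21% O2. Without the same mouse Ttr was nearest to 0 for O2 in PFF mice (range -1.27 to -0.045), the interaction (-2.43 to -1.13) and batch 3 against 2 (-1.35 to -0.26). The batch 2 against 1 difference of Kl ran from 0.75 to 1.43, with 0 to 1 of the 5 genes called for this contrast and over all batches. Over the 42 mice before correction, Otx2 had -0.031 for batch 3 against 2. The BCV of Ttr was 1.33 after correction.

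Trpv4 kept its 3 calls without any 1 mouse (0.62 to 0.78 and 0.95 to 1.08 for the first 2, and -1.21 to -1.04 for the interaction) and lost that with PFF at 21% O2 in batch 2 alone (0.63, edgeR adjusted p = 0.196). Sostdc1 lost its call without a filter on low counts (edgeR adjusted p = 0.0569) and in 16 of 42 fits that left out a mouse. Counts of all genes called moved by over 1.5 times with no fold-change threshold (1127 against 549 with PFF at 21% O2, and 1961 against 1073 with O2 in monomer mice) and in batch 1 alone (3 with PFF at 21% O2, 67 with O2 in monomer mice, 2 with O2 in PFF mice and 0 for the interaction, against 318). With O2 in PFF mice, 3 and 1 genes were called in batches 2 and 3 alone, against 86. Without PFF at 21% O2 replicate 6, the 48-mouse fit called 116 genes for the interaction. Without monomer at 21% O2 replicate 4, 1261 genes were called in batch 2 against 1, against 1902, and without monomer at 11% O2 replicate 11, 1 gene was called with PFF at 11% O2, against 0. Prox1 lost its call in batch 1 alone (0.33, edgeR adjusted p = 0.176) and without monomer at 21% O2 replicate 4 or monomer at 11% O2 replicate 7. Depth limits Folr1 most, at a median of 18 counts.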
